A study of Mus musculus with 6 samples.

Results

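A set of tumor nuclei with high Pde10a, Col12a1 and Gpm6b transcripts was described within single-nucleus RNA-seq libraries of subcutaneous TC1 tumors. The members were chosen by measured values. Nuclei with 1500 or more UMIs (unique molecular identifiers, each a counted molecule) counted as tumor nuclei where Hmga2, Mecom and Slit2 together made up 0.5% or more of the UMIs and the macrophage genes Adgre1, Cadm1, Csf1r, Cd84 and Mrc1 had under 3 counts. In each library the 15% of tumor nuclei with the highest UMI share of 8 summed markers (Pde10a, Gpm6b, Frmd5, Sned1, Medag, Col12a1, Pde1a and Hlf) and 3 or more marker counts were taken as members. This gave 1220 members of 8149 tumor nuclei and of 18865 barcodes in all. The other 6929 tumor nuclei served as the comparison. The paper lists Pde10a, Frmd5, Gpm6b, Medag and Col12a1 as top markers of a cluster that it labels fibroblasts. It adds that telling implanted TC1 cells from host mesenchymal or stromal cells would need further analyses. The name tumor nuclei rests here on the rule above, and whether members are host fibroblasts was not tested beyond the values below.

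TC1 is a tumor line derived from mouse lung cells transformed with papillomavirus oncogenes and an activated Ras gene. The mice carried floxed alleles of MCT2 (the monocarboxylate transporter encoded by Slc16a7) and a tamoxifen-inducible Cre transgene, both in the MCT2 control (CO) and in the MCT2 knockout (KO) group. At 8 weeks of age KO mice received tamoxifen for 5 days and CO mice received vehicle, so that tamoxifen itself and the deletion cannot be told apart. TC1 cells were then injected under the skin of the flank and grown for 24 days. Each group had 3 libraries from whole frozen tumors, and the sources used here do not state whether a library held 1 animal or which samples received extra washes. The p-values between groups therefore measure only the spread between these libraries, part of which may be technical. The promoter that drives Cre is not given in the sources used here, and the implanted cells do not carry the floxed alleles.

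The libraries held between 1916 and 4934 barcodes and between 13252572 and 22057084 UMIs, of which 517786 to 1606305 came from members. Members numbered 248 in CO replicate 1, 209 in replicate 2 and 108 in replicate 3, and 356, 192 and 107 in the same order for KO. Of the tumor barcodes, 5 occurred in more than 1 library, and no barcode was a member in more than 1 library. Slc16a7 had 134, 170 and 195 UMIs over all barcodes of the CO libraries and 294, 126 and 385 in those labelled KO. Per 1000000 UMIs these were 8.14, 10.4 and 14.7 (CO) and 16.1, 5.71 and 20.3 (KO), with KO replicate 2 lowest. The targeted transcript was thus not lower in the KO libraries as a group. Directions below are therefore between libraries labelled KO and CO. Where the deleted part lies relative to the counted 3′ ends is not given in the sources used here. Within tumor nuclei Slc16a7 had 2 UMIs in members and 80 in the others, which held more UMIs in all. Per 1000000 UMIs the median was 0 in members (0 to 1.24 by library) and 1.66 in the others (0.552 to 2.31).

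The markers join several functions. Pde10a and Pde1a encode phosphodiesterases, enzymes that end cyclic nucleotide signals by hydrolyzing cAMP and cGMP, the messengers made by adenylyl and guanylyl cyclases and read by protein kinases A and G. Col12a1 encodes a collagen that associates with fibrils of other collagens, and Sned1 a secreted matrix glycoprotein. Gpm6b is a membrane glycoprotein of the proteolipid family, best known in neural cells, Frmd5 a FERM-domain adaptor of cell junctions, Medag a gene induced in adipocyte formation, and Hlf a transcription factor of the PAR bZIP family, whose other members follow the circadian clock.

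On the mouse genome build GRCm38 the genes lie apart. Pde10a is at chr17:8525372-8986648 (plus strand), Pde1a at chr2:79834453-80129458 (minus), Frmd5 at chr2:121545529-121807087 (minus), Gpm6b at chrX:166238911-166388988 (plus), Sned1 at chr1:93235841-93301065 (plus), Medag at chr5:149411749-149431723 (plus), Col12a1 at chr9:79598991-79718831 (minus) and Hlf at chr11:90336536-90390895 (minus). Of the markers, 7 had an entry in the RefSeq promoter table of build GRCm38.p6. The cAMP response element TGACGTCA, which binds CREB-family factors and reads the same on both strands, occurred in the promoters of Hlf and Gpm6b. They are shown because CREB acts downstream of cAMP, which the phosphodiesterase markers hydrolyze. The 250 bases before each start are printed 5′ to 3′ on the strand of the gene with the element in capitals, for Hlf chr11:90390918-90391167 (minus strand) and for Gpm6b chrX:166238693-166238942 (plus strand).
Hlf: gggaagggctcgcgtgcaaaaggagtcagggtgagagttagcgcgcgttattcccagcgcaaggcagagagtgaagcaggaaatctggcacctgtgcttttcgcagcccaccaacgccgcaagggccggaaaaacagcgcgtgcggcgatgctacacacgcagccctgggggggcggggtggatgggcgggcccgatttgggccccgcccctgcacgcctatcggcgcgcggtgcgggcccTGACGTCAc
Gpm6b: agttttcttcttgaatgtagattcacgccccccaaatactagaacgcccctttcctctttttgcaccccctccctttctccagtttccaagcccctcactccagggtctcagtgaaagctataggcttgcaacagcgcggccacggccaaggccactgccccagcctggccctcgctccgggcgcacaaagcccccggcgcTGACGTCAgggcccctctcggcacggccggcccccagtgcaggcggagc
The element began 9 bases before the start of Hlf and 49 bases before that of Gpm6b. It was present in 1.79% of the 32851 promoters of the table (300 bases each), and among the genes that were higher in members (below) 5 of 391 with an entry carried it (1.28%, against 2.03% of all 27025 genes). The PAR bZIP element TTACGTAA (0.119% of promoters) and the AP-1 element TGANTCA (7.81%) were in no marker promoter. The TEAD element GGAATG (14.7%) was in those of Frmd5 and Pde1a, and the E-box CANNTG (72.3%) in those of Hlf, Medag, Pde10a and Pde1a, each searched on both strands. These are matches of letters and not sites of binding.

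The marker share that chose the members ran without a gap across the limit in every library. The median tumor nucleus had between 0.0411% and 0.159% of its UMIs from the markers, and the member with the lowest share had 0.171%, 0.223% and 0.562% in CO replicates 1 to 3 and 0.136%, 0.379% and 0.254% in KO replicates 1 to 3. Just inside the limit of CO replicate 1 lay a nucleus with 6 marker counts of 3507 UMIs (0.171%), and just outside it one with 14 of 8196 (0.171%). In CO replicate 3 these were 75 of 13353 UMIs (0.562%) and 26 of 4653 (0.559%). CO replicate 3 thus stood apart with the highest limit, and its other tumor nuclei also carried the most marker UMIs (a median share of 0.121%, against 0.0325% to 0.0618% in the other 5 libraries). Members with only 3 to 5 marker counts numbered 87 (7.13%), 65 of them in KO replicate 1.

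**Figure D1:**
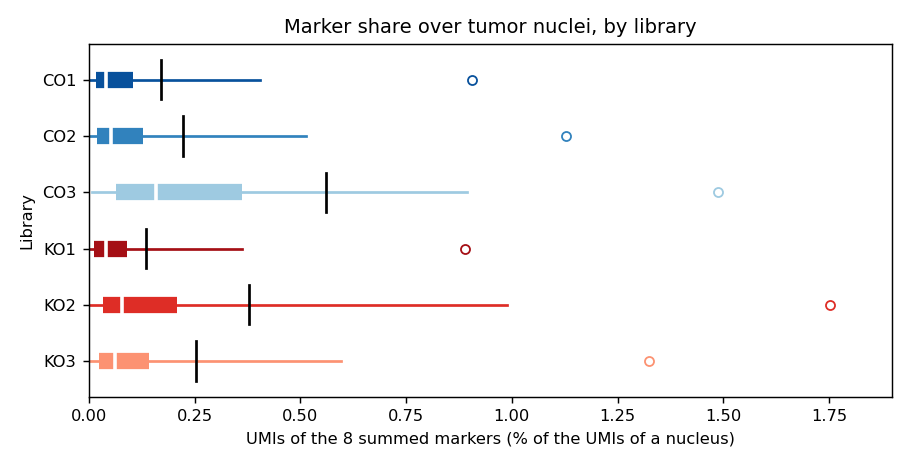
UMI share of the 8 summed markers over the tumor nuclei of each library (boxes, 25th to 75th percentile; white bar, median; lines, 5th to 95th percentile; open circles, 99th percentile). The black bar is the lowest share of a member, from 0.136% in KO replicate 1 to 0.562% in CO replicate 3.

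The levels of the markers are a description, since they chose the members. Levels are given in CPM, counts per 1000000 UMIs summed over the nuclei of a library, unscaled for the genes of the rule. In members, Pde10a reached 1128, 1584 and 2571 CPM (CO replicates 1 to 3) and 956, 3071 and 1760.3 CPM (KO replicates 1 to 3). The other tumor nuclei had 84.9, 154 and 311 CPM (CO) and 93.5, 167 and 157 CPM (KO), so that members and others did not overlap. Members had 257, 177 and 267 CPM of Gpm6b (CO) and 243, 574 and 532 CPM (KO). The other tumor nuclei had 11.05, 15.3 and 59.8 CPM (CO) and 11.3, 24.5 and 21.6 CPM (KO). The ratio of Gpm6b was therefore 4.46 in CO replicate 3 and at least 11.6 in each of the other libraries.

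Over the 6 libraries the ratio of members to other tumor nuclei had a median of 15.01 for Frmd5 (range 10.1 to 21.9) and 10.7 for Pde10a (8.28 to 18.4). It was 8.04 for Col12a1 (5.92 to 15.4), 6.53 for Medag (2.93 to 10.03), 6.49 for Hlf (4.66 to 9.64), 4.55 for Sned1 (3.83 to 5.46) and 4.45 for Pde1a (3.09 to 5.27). After thinning each nucleus to 1500 UMIs, 51.4% to 78.6% of members had a UMI of Pde10a, against 11.1% to 28.1% of the other tumor nuclei (68.3% to 92.2% and 31.8% to 60% without thinning). In 32 to 135 macrophage nuclei per library (10 or more counts of the macrophage genes, tumor genes under 0.5%; median depth 2184 to 3594 UMIs), which should lack these transcripts, the share was 0% to 5.77%. The level of Pde10a in macrophage nuclei was 0 to 242 CPM (median 17.4 CPM). The highest was that of CO replicate 2, above the 154 CPM of its other tumor nuclei. For Hlf, the least often detected, 8.61% to 20.4% of members had a UMI after thinning, against 1.27% to 4.88% of the others and 0% to 1.92% of macrophage nuclei (21.5% to 42.7% and 7.004% to 18.5% of members and others without thinning).

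**Figure D2:**
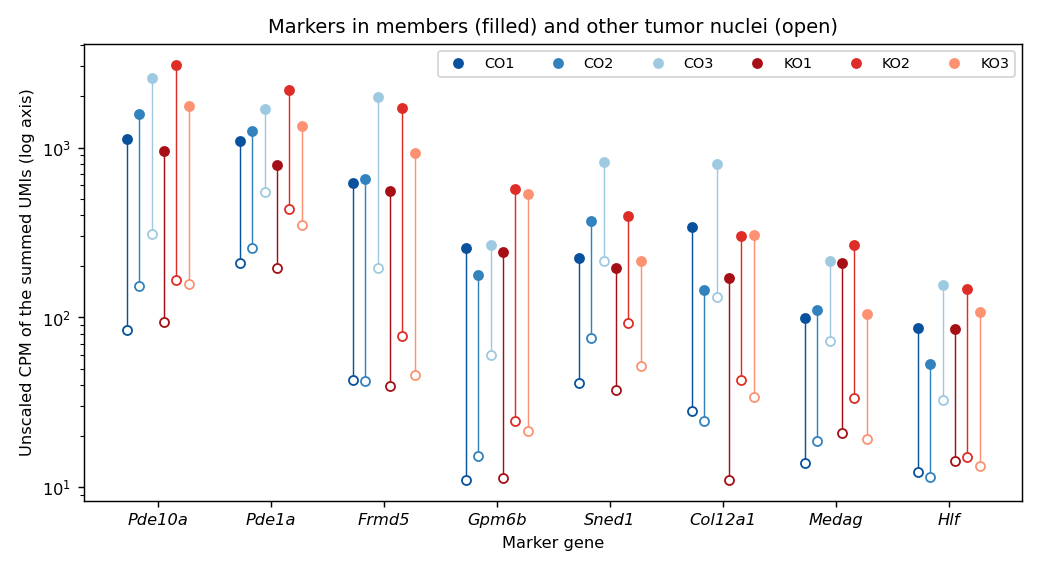
Unscaled CPM (log axis) of each marker in the members (filled) and the other tumor nuclei (open) of each library, joined by a line. Every filled point lies above its open point, and the open points of CO replicate 3 lie highest for each marker.

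Pde10a, Pde1a and Frmd5 gave the most counts to the sum in 461, 366 and 225 members (37.8%, 30.0% and 18.4%; counts not set per transcript length), so the rule weighed these 3 genes most. The markers were taken from earlier work on these same nuclei as genes of 1 state. Their common variation is therefore part of how they were chosen, and the next values only describe it. When members were chosen anew by 7 markers, the marker left out was still higher in the chosen nuclei of all 6 libraries, by a median ratio of 15.4 for Gpm6b (4.26 to 20.3), 8.23 for Frmd5 (4.77 to 9.97), 5.35 for Pde10a (3.81 to 7.71), 5.28 for Hlf (4.18 to 8.81) and 5.23 for Col12a1 (3.51 to 10.8). The smallest such ratios were those of Pde1a (median 3.18, range 2.48 to 3.89) and Sned1 (3.41, 2.64 to 3.94).

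With the tumor nuclei chosen by the share of a single marker, each of the 56 pairs of chosen and measured markers gave a ratio above 1 in all 6 libraries. The pair means ran from 1.66 to 9.52 with a median of 2.82, and the highest was Gpm6b in nuclei chosen by Pde10a. Choosing by Pde10a, Frmd5, Medag and Pde1a gave 1216 nuclei and by Gpm6b, Sned1, Col12a1 and Hlf 888. The sets shared 507 nuclei, 41.7% of the former and 57.1% of the latter. After thinning, members had UMIs of 2.49 to 3.96 of the 8 markers on average and other tumor nuclei of 0.540 to 1.59, and no member had all 8.

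**Figure D3:**
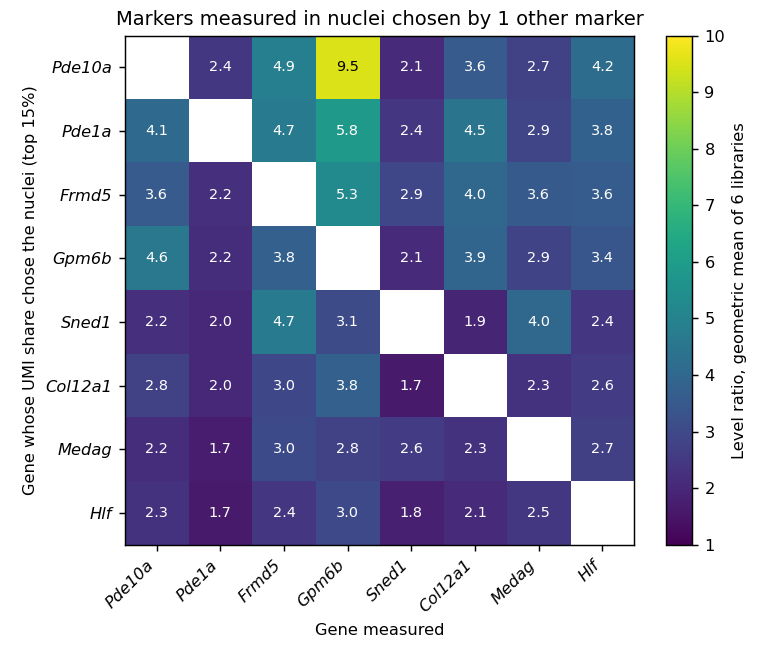
Level of each marker (columns) in the 15% of tumor nuclei with the highest share of 1 other marker (rows), as a ratio to the remaining tumor nuclei and as the geometric mean of 6 libraries. All ratios lie above 1, and the color scale runs from 1 to 10.

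Members differed from the other tumor nuclei in depth and in other measures of the nucleus. Their median UMI count was lower in all 6 libraries, between 3468 and 5616 against 4444 to 8439. Genes detected per nucleus were 2097 to 2664 in members and 2480 to 3568 in the others, but at 1500 UMIs they were 1032 to 1090 and 1047 to 1096. The median mitochondrial share was 3.52% to 8.59% in members and 5.00% to 9.92% in the others, lower in all 6 libraries. Without thinning, macrophage genes of the rule had a count in 5.24% to 23.4% of members and in 9.37% to 34.4% of the deeper others. Median CPM ratios of members to others were 1.02 (Adgre1), 0.939 (Cadm1), 0.836 (Csf1r), 0.736 (Cd84) and 1.17 (Mrc1). Each of these genes was higher in members of only 2 to 4 of the 6 libraries.

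Of the tumor genes of the rule, Hmga2, an oncofetal chromatin protein, was lower in members of all 6 libraries (2099 to 4911 CPM against 4222 to 7109 CPM; ratio 0.421 to 0.738). Slit2, a secreted guidance ligand, had a ratio of 0.952 to 1.74 and Mecom, a zinc-finger transcription factor, one of 0.912 to 1.20. Epithelial keratins were at 0 in members (Krt8 and Krt18, no UMI in any library), Epcam had 1 UMI, and the lung lineage genes Nkx2-1 and Sftpc had none in any tumor nucleus. The mesenchymal intermediate filament gene Vim was at 218 to 1337 CPM in members and 303 to 1925 CPM in the others.

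To describe the genes outside the rule, raw counts were summed per library and state and compared with edgeR, with library as a block. A call required a log2 fold change of 0.58 or more in either direction with a Benjamini-Hochberg adjusted p of 0.05 or less. The markers came from earlier work on these same nuclei and the comparison is the one the rule selects on. Calls therefore measure agreement among libraries, are no independent evidence of a cell state, and are given with fold changes and no p. Of 11377 genes, 900 were called (7.91%), of which 530 were higher (4.66%) and 370 lower (3.25%) in members. The called genes had the same sign in all 6 libraries for 457 of the 530 and 304 of the 370. Genes higher in members were long, with a median gene span of 57.2 kb against 27.1 kb over all genes tested and 30.6 kb for the lower ones. The part of gene span in these differences was not tested.

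Genes with the same sign in all 6 libraries and a mean of 20 CPM or more in the higher state are named first. Levels from here on are CPM scaled by TMM, as the lowest, median and highest of 6 libraries, and fold changes are log2 with the SE. Pappa, a secreted protease that cleaves insulin-like growth factor binding proteins, was at 54.6, 109 and 174 CPM in members and at 4.96, 9.29 and 20.1 CPM in the others (3.57, SE 0.15). Every member value of Pappa lay above every value of the other tumor nuclei. Among further genes, Plxdc2 (3.09, SE 0.18), Kng2 (2.95, SE 0.21), the potassium channel Kcnk10 (2.93, SE 0.16), the glucocorticoid-activating enzyme Hsd11b1 (2.92, SE 0.22), the secreted Retnla (2.86, SE 0.22), the hyaluronan-degrading Cemip (2.84, SE 0.24), the endothelin receptor Ednra (2.80, SE 0.19) and Xdh of purine breakdown (2.69, SE 0.12) were higher in all 6 libraries. Kcnk10 was at 43.5 CPM in members of CO replicate 3 and 33.3 CPM in its other tumor nuclei, and at 111 to 381 CPM against 15.7 to 39.2 CPM in the other libraries.

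Within the same limits the lowest fold changes were smaller in size. Sox2, a transcription factor of stem and neural cells, was at 14.9, 59.3 and 86.7 CPM in members and at 72.2, 137 and 220.1 CPM in the others (−1.49, SE 0.10), lower in all 6 libraries although the ranges overlapped. Itga6, a laminin-binding integrin, was at 56.6, 74.2 and 145 CPM in members and at 149.6, 224 and 253 CPM in the others (−1.36, SE 0.11), without overlap. The adhesion receptor Adgrg6 (−1.48, SE 0.11), Lingo2 (−1.46, SE 0.10), the neural adhesion gene Nrcam (−1.43, SE 0.16), the cytokine Il34 (−1.31, SE 0.18), the protein kinase A inhibitor Pkia (−1.37, SE 0.19) and the transcription factor Tead4 (−1.30, SE 0.11) were likewise lower in all 6 libraries. Tmem200a (−1.58, SE 0.18), Enthd1 (−1.51, SE 0.13), Ngef (−1.45, SE 0.17), Naa11 (−1.45, SE 0.18), Cavin4 (−1.39, SE 0.16), Itgbl1 (−1.29, SE 0.24) and Atg9b (−1.24, SE 0.09) complete the 15 lowest of the genes that met these limits.

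**Figure D4:**
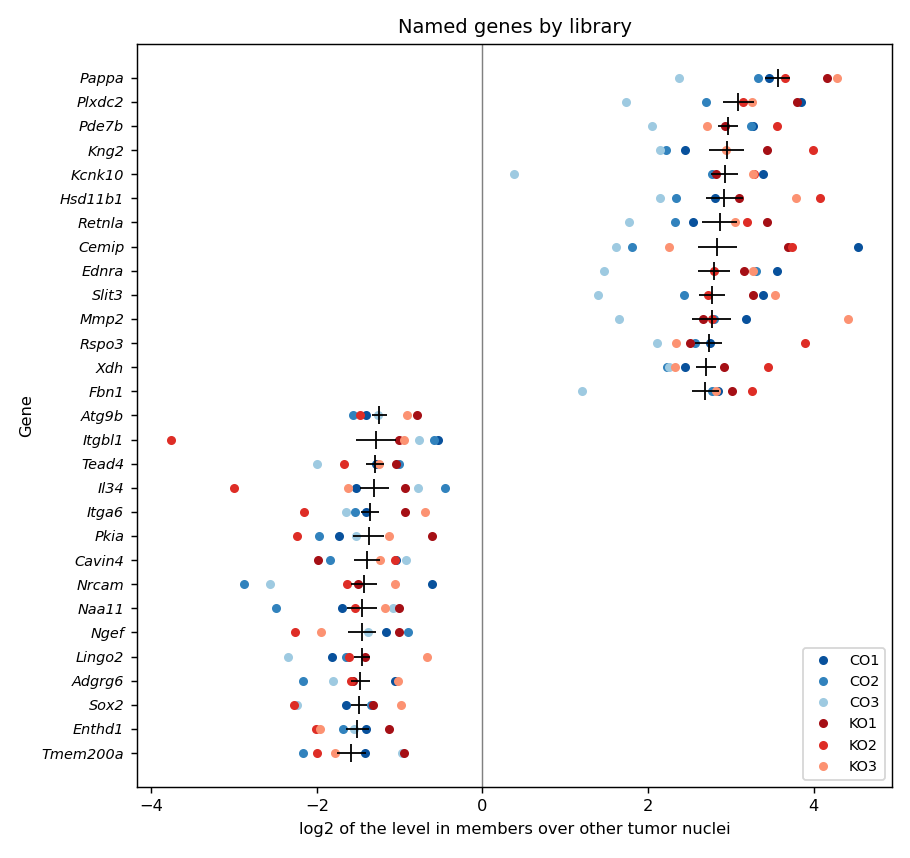
Log2 ratio of members over other tumor nuclei in each library (points) and the fitted log2 fold change ± SE (black) for named genes with the highest and the lowest fold changes. All points of a gene lie on 1 side of 0, and CO replicate 3 has the smallest ratio for most of the higher genes, with Kcnk10 nearest to 0.

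Phosphodiesterases outside the rule moved with Pde10a and Pde1a in part. Of 11 tested, 3 were higher and none lower (median log2 fold change 0.31, against −0.01 over all genes). Pde7b, a cAMP-specific enzyme, was at 263, 651 and 1280.5 CPM in members and at 34.7, 85.1 and 255 CPM in the others (2.97, SE 0.12), without overlap. The cAMP-specific Pde4d (1.27, SE 0.07) and Pde4b (1.44, SE 0.12) were higher without overlap as well. Pde3b (0.40, SE 0.06), Pde7a (−0.05, SE 0.06) and Pde4a (−0.26, SE 0.06) were not called. Of 27 tested cyclases, kinases and cAMP exchange factors, Prkg1, the cGMP-dependent kinase (1.82, SE 0.11), and Adcy2 (1.30, SE 0.14) were higher and Adcy8 (−0.88, SE 0.08) and Rapgef4 (−0.69, SE 0.14) were lower, so the list as a whole had no common direction (median 0.06). Without KO replicate 1, 4 of them were lower.

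Among the pathway lists with 10 or more genes tested, collagens had the largest share called higher. Of 22 collagens tested, 12 were higher and none lower (median 0.84). Col3a1, a fibrillar collagen, was at 713, 1361 and 1887 CPM in members and at 211, 370.4 and 888 CPM in the others (1.74, SE 0.09). Col5a2 (1.84, SE 0.09) and Col25a1 (2.10, SE 0.29) were higher without overlap, and Col1a1 (1.73, SE 0.23) in 5 of 6 libraries. The basement membrane chains Col4a1 (1.08, SE 0.07) and Col4a2 (1.00, SE 0.07) and the chains Col6a1 (0.66, SE 0.08), Col6a2 (0.90, SE 0.11) and Col6a3 (0.77, SE 0.06) were also called.

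Of 41 matrix glycoproteins, proteoglycans and crosslinkers, 19 were higher and 2 lower (median 0.36). Fbn1, the main protein of microfibrils, was at 38.8, 76.4 and 120.3 CPM in members and at 4.79, 12.2 and 31.1 CPM in the others (2.69, SE 0.17), and Eln, elastin, was also higher (2.56, SE 0.26). Spon2 (2.60, SE 0.28), Lama4 (2.10, SE 0.12), the fibrillogenesis-guiding Dcn (1.97, SE 0.20), fibronectin Fn1 (0.98, SE 0.07) and tenascin Tnc (1.00, SE 0.10) were higher, whereas Loxl4 (−0.77, SE 0.23) and Lama5 (−0.64, SE 0.17) were lower. Of 21 proteases and inhibitors, 7 were higher, led by the gelatinase Mmp2 (2.77, SE 0.24), Mmp3 (2.27, SE 0.21), Adamts1 (1.37, SE 0.16) and Adamts5 (1.24, SE 0.11), and Adam19 was lower (−0.94, SE 0.10).

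Secreted signals and their receptors moved in both directions. Of 27 growth factor genes, 10 were higher and 5 lower. The fibroblast growth factor gene Fgf2 was at 57.0, 68.3 and 116 CPM in members and at 7.26, 13.3 and 38.9 CPM in the others (2.53, SE 0.17), and Fgf7 at 342, 452 and 683 CPM against 101, 137 and 189 CPM (1.87, SE 0.08), both without overlap. The GDNF co-receptor Gfra1 (2.25, SE 0.09), Igfbp4 (1.89, SE 0.09), a substrate of the Pappa protease, Hgf (1.78, SE 0.13) and Egfr (1.39, SE 0.11) were higher. Met, the receptor of Hgf, was lower (−1.17, SE 0.14), as were Pdgfd (−1.003, SE 0.21), Pdgfa (−0.79, SE 0.10) and Kitl (−0.74, SE 0.08).

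Among 29 TGF-beta and BMP genes, 8 were higher and 1 lower. The co-receptor Tgfbr3 was at 870.2, 1096 and 2122 CPM in members and at 314, 428 and 793 CPM in the others (1.44, SE 0.05). The TGF-beta target Pmepa1 (1.88, SE 0.12), Bmper (1.82, SE 0.18) and Smad6 (1.31, SE 0.24), an inhibitor of BMP signals, were higher and Bmp2 was lower (−0.69, SE 0.10). Of 26 Wnt genes, the Wnt enhancer Rspo3 (2.73, SE 0.17), Fzd1 (1.42, SE 0.12), Ror1 (1.30, SE 0.21) and Lef1 (0.73, SE 0.13) were higher and the secreted inhibitor Dkk2 was lower (−1.12, SE 0.10). Of 42 axon guidance genes, 10 were higher, with Slit3 (2.77, SE 0.16), Epha7 (2.39, SE 0.15) and Sema3c (1.79, SE 0.12) in front, and 3 were lower, among them Plxna4 (−1.65, SE 0.29) in 5 of 6 libraries. Without KO replicate 1, 5 axon guidance genes were lower.

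Of 14 clock and PAR bZIP genes, 5 were higher and none lower, namely Nfil3 (1.46, SE 0.14), a bZIP repressor that competes with the Hlf family, Rora (1.25, SE 0.09), Rorb (1.04, SE 0.08), Arntl (0.77, SE 0.07) and Per1 (0.60, SE 0.20). The PAR bZIP genes Dbp (0.04, SE 0.22) and Tef (−0.12, SE 0.09) were not called. Of 21 Ras-MAPK output genes, 6 were lower, led by Dusp5 (−1.22, SE 0.14), Hbegf (−1.10, SE 0.09) and Ccnd1 (−1.01, SE 0.09), and the feedback inhibitor Spry1 was higher (1.91, SE 0.24). Of 26 immediate-early and stress genes, Jun (−0.91, SE 0.06), Atf3 (−0.81, SE 0.26), Gadd45b (−0.74, SE 0.18) and Fosl1 (−0.70, SE 0.07) were lower. Atf3 and Gadd45b were each lower in 5 of 6 libraries. Dusp1 was higher (0.70, SE 0.18).

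Of 25 interferon-stimulated genes, 7 were higher and none lower. They were led by Rsad2 (1.02, SE 0.08), Cmpk2 (0.95, SE 0.21), Zbp1 (0.89, SE 0.12) and Oasl1 (0.77, SE 0.08). Cmpk2 was higher in 5 of 6 libraries. None of 31 S phase genes was called (median −0.12; Pola1 −0.09, SE 0.06; Atad2 −0.18, SE 0.06). Of 33 genes of G2 and mitosis, 11 were lower (median −0.53), led by Cdc25c (−1.03, SE 0.14), Ect2 (−0.77, SE 0.08), Ccnb1 (−0.74, SE 0.11) and Cenpa (−0.74, SE 0.07). Without CO replicate 1, 7 were lower, and without KO replicate 1, 17 were. Their summed level was 2589 to 3569 CPM in members and 3282 to 4671 CPM in the others, lower in all 6 libraries. With each nucleus thinned to 1500 UMIs, 19 of the 33 were lower (median −0.63), and members had 3.01 to 4.58 counts of these genes per nucleus on average, against 4.26 to 6.31 in the others. At that depth 23.1% to 48.0% of members and 48.6% to 69.3% of the others had 8 or more counts of the S phase and G2/M lists. With members chosen within 5 bins of the UMI distribution none of the 33 was called (median −0.31). The part of depth in this difference was not settled by these values.

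Of 21 mesenchymal genes 5 were higher and none lower (median −0.05), led by Prrx2 (1.25, SE 0.08), Snai1 (1.16, SE 0.18), Cald1 (0.74, SE 0.06) and Prrx1 (0.67, SE 0.06). The only epithelial gene that passed the filter, Tjp1, was not called (0.32, SE 0.06), and 13 of the 30 listed had no UMI in members. Of 40 genes of neural type, 7 were higher, led by the calcium channel genes Cacna2d1 (1.62, SE 0.08) and Cacna1c (1.20, SE 0.06), with Csmd1 (1.17, SE 0.30) in 5 of 6 libraries, and 1, the adhesion gene Nrcam given above, was lower. Csmd1 was at 64.5 CPM in members of 1 library and its log2 fold change turned negative under 6 other ways of choosing the nuclei. Of 16 adipogenic genes, Ebf1 (1.15, SE 0.07), Cebpb (0.89, SE 0.06) and Cebpd (0.69, SE 0.08) were higher and Klf5 was lower (−0.60, SE 0.11). Of 30 hypoxia and glycolysis genes, Vegfa was higher (0.60, SE 0.08) and Ndrg1 (−0.62, SE 0.10) and Ankrd37 (−0.61, SE 0.15) were lower.

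**Figure D5:**
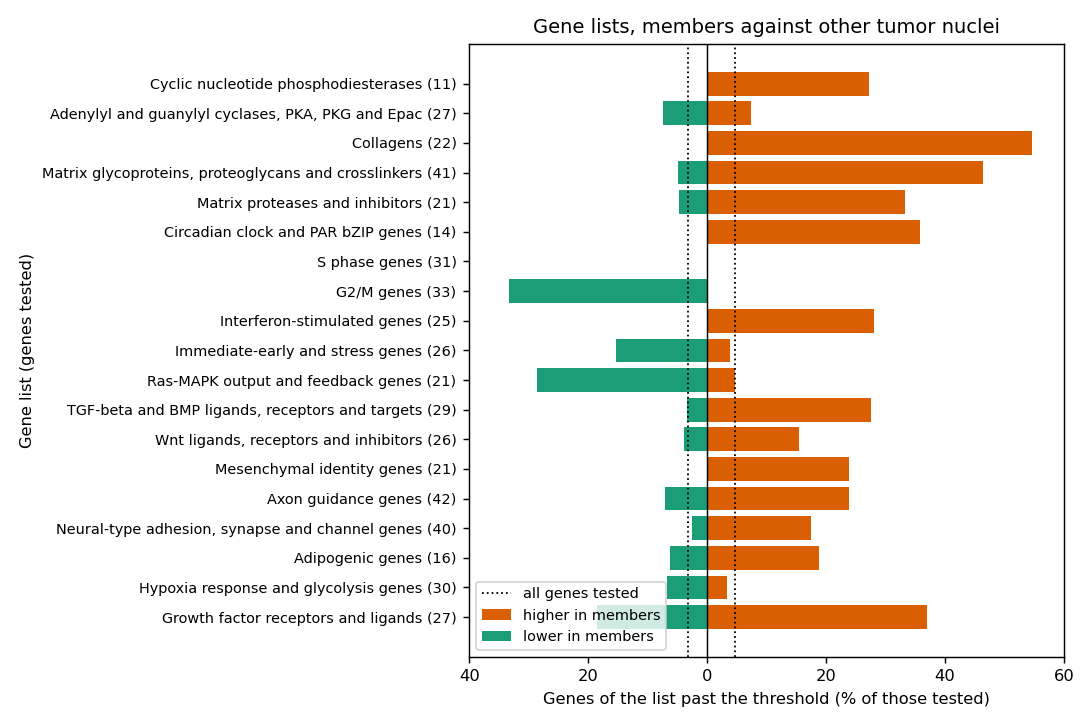
Percentage of the tested genes of each list called higher (right) or lower (left) in members, for lists with 10 or more genes tested, with the number tested in parentheses and all genes as dotted lines (4.66% higher, 3.25% lower). Collagens and matrix glycoproteins have the longest bars to the right and genes of G2 and mitosis the longest to the left.

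Members shared few nuclei with the Msln, Pthlh and Crabp1 tumor state. Of the 621 nuclei of that state (top 15% with 3 or more counts of its genes), 46 were members. This is 7.41% of that state and 3.77% of members, where members made up 14.97% of all tumor nuclei. The limit of 3 counts left that state at 7.62% of tumor nuclei, and members were shallower than the others. The part of depth in this overlap was not tested. Msln was lower in members (−0.84, SE 0.14) in 5 of 6 libraries. Of the 1220 nuclei with the highest share of Etv4, Igf2bp genes and Adamtsl5, 188 were members (15.4% of each set). None of the 5 genes of that state was called, with Etv4 at −0.32 (SE 0.06) and Igf2bp2 at 0.19 (SE 0.05).

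Markers of other cell types were measured in members as well. Of 5 host fibroblast genes tested of 12 listed, Dcn (1.97, SE 0.20), C3 (1.47, SE 0.19) and Pdgfra (1.04, SE 0.06) were higher, and the unscaled sum of the list was 1254 to 2416 CPM in members and 610.5 to 1305 CPM in the others. Most of it was Pdgfra, which was at 459 to 1059.8 CPM in the other tumor nuclei too. Of the defining fibroblast genes, the matrix gene Lum had a median of 3.74 CPM in members (0.623 to 9.57) and 0.531 CPM in the others, and Dpt 6.53 CPM (0.832 to 21.2) and 1.57 CPM. Dcn was at 18.6 to 84.1 CPM in members and 3.22 to 50.6 CPM in the others. Pi16 (median 1.21 and 1.29 CPM), Scara5 (0.399 and 0.664 CPM) and Clec3b (0.668 and 0.737 CPM) were near 0 in both. The part of host fibroblast RNA in the matrix genes above was not tested beyond the next values. Without nuclei that had a count of the list (Pdgfra and Gsn left out of it), 830 genes were called, 695 of them among the 900, with 12 of 19 collagens higher.

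The pericyte and smooth muscle list was higher in members of all 6 libraries (74.3 to 124 CPM against 33.8 to 97.3 CPM) with Pdgfrb called (1.26, SE 0.12), and Rgs5 was at 0 to 4.98 CPM. The Schwann cell list was lower in members of all 6 libraries (50.01 to 142 CPM against 103 to 261 CPM), with 5 of its 10 genes at 0 in members, Sox10 among them, and its only called gene was Sox2. The rule itself limits macrophage counts in all tumor nuclei. The sum of macrophage markers outside the rule was also lower in all 6 (264 to 631 CPM in members and 426 to 726 CPM in the others). Of 13 such markers tested, only Mertk was called, and it was lower (−0.86, SE 0.07). The other 12 were not called, and the list had a median log2 fold change of 0.06. Of the endothelial list, 4 genes were tested and none called (Flt1 0.18, SE 0.08; Pecam1 −0.52, SE 0.21), and of T and NK cell markers 2 were tested and none called (Skap1 0.16, SE 0.33; Tox −0.06, SE 0.35). Of 9 skeletal muscle genes only Neb passed the filter, and it was called (0.59, SE 0.16), higher in 5 of 6 libraries. The muscle gene Ttn had a median of 0.668 CPM in members and 2.26 CPM in the others. With no filter on low counts, 0 of the 9 were called higher and 1 lower (median −0.52). The adipocyte list summed to 0.798 to 3.74 CPM in members with Adipoq at 0. Whether a few nuclei of other types are among the members was not tested beyond these values.

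The next question was whether the state differed between the libraries labelled KO and CO. Because the rule fixes the share of members at 15% in every library, the markers were compared over all tumor nuclei. The summed marker share of tumor nuclei took 0.0795%, 0.101% and 0.219% of UMIs (CO replicates 1 to 3) and 0.0765%, 0.167% and 0.119% (KO replicates 1 to 3). The mean was 0.133 ± 0.0754% for CO and 0.121 ± 0.0453% for KO (SD, n = 3 libraries), and KO minus CO was −0.0124 percentage points (2-sided exact permutation p 0.8, where 0.1 is the smallest that 3 against 3 libraries can give). The groups overlapped, and the highest value was that of CO replicate 3. Without it the difference was 0.0307, and without KO replicate 1, which had the lowest value, it was 0.00975 percentage points.

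None of the 8 markers was called between the groups over all tumor nuclei, where 0% of 13017 genes were called by edgeR (846 at an unadjusted p under 0.05; 28 by DESeq2), and none had groups that did not overlap, against 12.6% of genes (6.81% with KO higher and 5.81% with KO lower). Sned1 averaged 141.5 ± 105 CPM (SD) for CO and 86.8 ± 42.2 CPM for KO (−0.70, SE 0.56, edgeR adjusted p 0.602) and Col12a1 93.9 ± 79.8 CPM for CO and 56.5 ± 23.6 CPM for KO (−0.73, SE 0.61, edgeR adjusted p 0.605). The spread within CO exceeded these differences.

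Within members, 0% of 9911 genes were called between the groups by edgeR (582 at an unadjusted p under 0.05; 1 by DESeq2). The levels of the markers themselves in members are partly set by the rule, whose limit differs by library, and were given above as a description. KO replicate 1 decided the count of calls, since without it 1536 genes were called in members (396 higher and 1140 lower in KO) and 2851 in all tumor nuclei. Counts of KO replicate 1 differed from those of KO replicates 2 and 3 by a chi-square of 20.9 and 9.65 per degree of freedom over genes in members. It was 3.57 between the latter and 2.01 to 6.23 among the CO libraries. Member UMIs ranged from 517786 in CO replicate 3 to 1606305 in KO replicate 1. The part of depth in these chi-square values was not tested.

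The genes with the smallest p within members were Nav3, Inpp4b and Cdkn1c. Nav3, a guidance-related microtubule-binding protein, had 188, 174 and 160.5 CPM (CO) and 339, 434 and 455 CPM (KO) (1.23, SE 0.22, edgeR adjusted p 0.702), and it was the gene called by DESeq2. Inpp4b, a phosphoinositide phosphatase, had 24.5, 26.3 and 19.6 CPM (CO) and 50.1, 72.7 and 65.2 CPM (KO) (1.38, SE 0.26, edgeR adjusted p 0.702). Cdkn1c, a cyclin-dependent kinase inhibitor, had 27.7, 23.8 and 56.8 CPM (CO) and 3.71, 5.41 and 11.3 CPM (KO) (−2.44, SE 0.50, edgeR adjusted p 0.702). For these 3 genes the groups did not overlap, as for 12% of all genes (6.02% with KO higher and 6.01% with KO lower). Cdkn1c was also higher in members than in other tumor nuclei in all 6 libraries (2.25, SE 0.21), and Nav3 was lower (−0.96, SE 0.07).

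Whether the difference between members and other tumor nuclei depended on the group was tested as an interaction. It called 0% of 11392 genes by edgeR (514 at an unadjusted p under 0.05; 0 by DESeq2). The genes of the rule were not taken out of this test. The smallest p was that of Igfbp7, a secreted binding protein of insulin-like growth factors. It was at 4.75, 10.6 and 24.6 CPM in members and at 2.84, 11.4 and 53.6 CPM in the other tumor nuclei of CO. In KO it was at 40.6, 9.44 and 63.0 CPM in members and at 10.8, 5.67 and 24.6 CPM in the others (interaction 1.96, SE 0.37, edgeR adjusted p 0.348). Kif21a, a kinesin, was at 75.2 to 81.8 CPM in members of CO and 122 to 136 CPM in members of KO, with 57.7 to 67.4 and 61.1 to 76.4 CPM in the others (interaction 0.59, SE 0.14, edgeR adjusted p 1). Cxcl10, an interferon-induced chemokine, had the other of the 3 smallest p (interaction 0.58, SE 0.13, edgeR adjusted p 1).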

How the data were processed

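Nuclei of whole frozen tumors were sequenced with droplet 3′ chemistry. The authors made the deposited UMI count matrices with Cell Ranger (3.0.2 in the submitters' processing notes, 3.1.0 in a file header), and their notes also name Seurat 5.2.1. Per the study's methods ambient RNA was then removed with SoupX. The deposited values are whole numbers, and whether they precede that step, or count introns, is not given in the sources used here. Nuclei with 100 to 7500 genes, under 20% mitochondrial UMIs and 1500 or more UMIs were kept. No doublet caller was run, and nuclei with 3 or more macrophage counts were left out.

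The members, markers and gene lists were chosen with earlier results of these data known. Raw counts were summed per library and state and tested with edgeR 4.0.16 (quasi-likelihood, TMM, filterByExpr) in R 4.3.3. Members against others had library as a block, KO against CO used 3 libraries a group, and the interaction had both. DESeq2 1.42.0 was an alternative. The fits were also run on simulated counts, with the same spread beyond counting for every gene and no library differences but depth. That run does not give their error rates in these data. Thinning drew 1500 UMIs per nucleus without replacement. Gene spans and positions came from GENCODE M21, promoters from RefSeq.

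Named genes were the markers, the 15 highest and 15 lowest called genes with 1 sign in all 6 libraries and a mean of 20 CPM or more in the higher state (without Gm, Rik and mt- symbols), up to 4 called genes of each list (or the 2 of highest CPM where none was called) and the 3 smallest p of each comparison between groups. Further list members, such as Pde3b, Col4a1, Fn1, Egfr and Dbp, were added after their values were seen. Some genes that this rule names are not reported here.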

Additional observations from a re-analysis of the deposited data

Results flagged for a closer look

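Cxcl10, an interferon-induced chemokine, was lower in members than in other tumor nuclei of each CO library and higher in each KO library. In the CO libraries it was at 380.1, 299 and 125 CPM in members and at 382, 352 and 137 CPM in the others. In the KO libraries it was at 353, 132 and 240 CPM in members and at 308, 78.8 and 159 CPM in the others. Over all 6 libraries the log2 fold change was 0.17, and the interaction of 0.58 (SE 0.13) had an edgeR adjusted p of 1. It was called in 3 of 21 alternatives.

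Nuclei under 1500 UMIs entered no comparison. Of 1362 shallow tumor nuclei, 102 had 3 or more counts of the markers (7.49%), with 3.33% to 14.8% in the single libraries. Of 1779 shallow macrophage nuclei 1 did (0.0562%). Both shares are percentages of nuclei, given without an interval.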

How the results depend on the processing

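Members against other tumor nuclei gave 230 calls with no library block, all among the 900, and 52 of 1692 genes tested without cycling nuclei (2 or more cycling counts per 1500 UMIs), where few nuclei were left. Other settings gave 612 to 1107 calls, and leaving out 1 library 830 to 982. With no filter on low counts the calls split into 534 higher and 548 lower, with the top 25% as members into 444 and 203, and within 5 bins of UMIs into 424 and 188. Of 2408 values of 105 named genes, 2241 kept direction and call, 160 lost the call and 7 reversed. Csmd1 was at −0.26 without the 10% deepest nuclei, −0.071 with 0 macrophage counts, −0.11 with the top 10% as members, −0.11 with under 8 cycling counts, −0.035 without host fibroblast counts and −0.46 with members chosen by Gpm6b, Sned1, Col12a1 and Hlf. Igfbp7 in members against other tumor nuclei was at −0.00931 without host fibroblast counts. The last limit on cycling counts, that on fibroblast counts and a tumor gene share of 1% were chosen after seeing the data. The cause of these changes was not tested.

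KO against CO gave 0 to 1536 calls in members and 0 to 2851 in all tumor nuclei when 1 library was left out, the highest without KO replicate 1, and 1 and 28 calls by DESeq2. The interaction gave 0 to 2 calls with 1 library left out, 18 with no filter and 4 within 5 bins of UMIs. It gave 1 each with the top 10%, with the top 25%, within bins of mitochondrial and ribosomal share, without cycling nuclei and with under 8 cycling counts. Genes of the rule stayed in these fits. The call without CO replicate 1 and that with under 8 cycling counts were the marker Gpm6b. Those with no filter included Gpm6b and Medag. Calls of markers are no finding, since the markers chose the members. The adjusted p of Nav3 ran from 0.00578 to 1.00 over the alternatives. The KO minus CO difference in summed marker share of tumor nuclei ran from −0.0393 to 0.0307 with 1 library left out. It reversed without CO replicate 3 (0.0307, exact permutation p 0.6) and without KO replicate 1 (0.00975, exact permutation p 1).

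Libraries with the same number correlated by 0.39, −0.22 and 0.14 in members and by 0.57, −0.28 and 0.42 in all tumor nuclei. The correlations were of both signs and came from 3 libraries a group. Whether libraries with the same number were handled together therefore cannot be told from these values. With a replicate block KO against CO gave 0 calls in members and 0 in all tumor nuclei, with 978 and 1803 genes at an unadjusted p under 0.05 (582 and 846 without it), and the marker share differed by −0.0124 (exact sign-flip p 0.75). Members were shallower than other tumor nuclei and summed to as few as 517786 UMIs in a library, so that low genes were not tested.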
